A study of Rattus norvegicus with 12 samples.

Results

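The genes examined here are those of the hypoxia-inducible factor (HIF) pathway and of the transcripts that HIF is known to induce, in rat hippocampal neurons after a period without oxygen and glucose (OGD, oxygen-glucose deprivation), an in vitro model of ischemia. The 10 genes were chosen by name, Hif1a, Epas1, Egln1, Egln3, Vegfa, Adm, Bnip3, Ankrd37, Ddit4 and P4ha1. Each gene was read from the non-control array probe whose accession maps to it and, where there were several such probes, from the one with the highest mean log2 intensity over the 12 arrays. A probe was found for 9 of the 10 genes, out of 15154 named genes with a probe, and no probe carried an accession of Egln1.

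HIF is a pair of proteins, an oxygen-sensitive alpha subunit (encoded by Hif1a or Epas1) and a stable beta subunit (Arnt or Arnt2). In the presence of oxygen, prolyl hydroxylases of the Egln family mark the alpha subunit, the Vhl protein recognises the mark, and the subunit is degraded. Without oxygen the alpha subunit escapes this control, and the pair binds short DNA elements next to genes of blood vessel growth, glycolysis and survival. Egln3 is itself a HIF target, so the pathway can limit its own activity, and most of the control of the alpha subunit acts on the protein, which an array does not read.

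Cultures were prepared from the hippocampi of Wistar rat embryos at embryonic day 18 and kept for 14 to 15 days. The OGD cultures spent 2 h in a saline buffer with 25 mM sucrose and no glucose inside an anaerobic chamber, and the control (Ctrl) cultures spent the same time in a like buffer with 25 mM glucose in air and CO2. Both were then returned to conditioned medium in air and CO2 for 7 h or 24 h before RNA was taken, so all values describe cells that had oxygen and glucose again. There were 4 groups of 3 arrays, and the labels call the replicates of a group independent cultures.

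HIF binds at elements that hold the core ACGTG or GCGTG. The window from 250 bases before to 50 bases after the start site was searched for both cores on either strand (RefSeq sequence, build GRCr8), and all 10 genes had such a window. A core was present in 6 of the 11 windows (Vegfa had 2), with 0 to 5 matches per window, while 41.6% of all 33469 windows of that length held at least 1. The 3 windows below are printed because Adm was the only one of the genes called after OGD, Ankrd37 and Bnip3 had the most matches. Each is read 5′ to 3′ along the gene, with the cores of either strand in capitals. A core and its reverse complement can overlap, as in CACGTG. The window of Adm lies on the plus strand at chr1:174179950-174180249, that of Ankrd37 on the plus strand at chr16:53001257-53001556 and that of Bnip3 on the minus strand at chr1:203154913-203155212.
Adm: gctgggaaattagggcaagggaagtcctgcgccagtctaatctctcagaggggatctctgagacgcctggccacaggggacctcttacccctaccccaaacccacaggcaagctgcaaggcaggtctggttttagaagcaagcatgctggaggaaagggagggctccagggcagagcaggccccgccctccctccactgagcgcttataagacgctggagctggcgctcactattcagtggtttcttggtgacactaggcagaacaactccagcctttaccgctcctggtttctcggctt
Ankrd37: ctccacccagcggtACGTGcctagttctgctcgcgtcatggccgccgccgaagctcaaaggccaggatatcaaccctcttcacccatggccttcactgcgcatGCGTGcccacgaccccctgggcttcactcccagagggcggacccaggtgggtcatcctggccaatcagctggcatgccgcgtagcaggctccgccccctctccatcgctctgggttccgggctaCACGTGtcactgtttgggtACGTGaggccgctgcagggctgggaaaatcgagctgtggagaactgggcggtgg
Bnip3: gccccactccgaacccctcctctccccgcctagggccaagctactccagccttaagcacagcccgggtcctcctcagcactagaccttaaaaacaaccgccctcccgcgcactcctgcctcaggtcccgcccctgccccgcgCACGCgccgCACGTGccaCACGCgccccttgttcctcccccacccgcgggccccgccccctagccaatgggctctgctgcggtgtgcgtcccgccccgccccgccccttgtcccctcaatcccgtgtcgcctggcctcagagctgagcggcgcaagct
The window of Ankrd37 held 5 matches and that of Bnip3 held 4, whereas that of Adm held 0. A missing core says only that these letters are not in this window.

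Levels are given as log2 intensity relative to the median over non-control probes on each array, and a difference of 1 on this scale is 2-fold. Between 78.3% and 87.1% of the spots of an array were well above background. On every one of the 12 arrays the probes of the 9 genes were well above background, and none was saturated. OGD replicate 1 at 24 h stood apart, with the lowest median intensity (75.25) and the lowest correlation with an array of its own group (r = 0.957, with replicate 3). Median intensities at 7 h were 121, 181 and 202 in OGD replicates 1 to 3 and 294, 216 and 266 in controls. At 24 h they were 75.25, 176 and 238 after OGD and 188, 220 and 211 in controls. Centring on the median takes these differences out, so every difference between OGD and control depends on it. OGD replicates 1 and 2 at 7 h and OGD replicate 1 at 24 h were scanned at least 177 min before all other arrays of their time, and the control array of the same slide was not among them. In a model with this scan session as a term, added after seeing the data, 9713 of 30367 probes had an unadjusted p under 0.05 for the session. For 373 probes the adjusted p of the session was under 0.05. The 3 early arrays were all OGD arrays, so the term was read from differences between OGD replicates of the same time. An effect of the scan session therefore cannot be told apart from other traits of these 3 arrays. Control and OGD arrays also lay at fixed places of each slide, so place and treatment cannot be told apart.

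One gene of the pathway, Adm, was called higher after OGD at 7 h and again at 24 h, and none was called lower. A call here means an unadjusted limma p under 0.05 and at least 2-fold. The study set the same limits on Student's test at each time, by which Adm passed at 7 h and missed at 24 h, leaving 0 of the 9 genes at 24 h. The study itself lists Adm from these samples, so this count is not independent evidence of its direction. At 7 h the background was 2.08% of 30367 probes called higher and 1.66% called lower. At 24 h it was 3.71% called higher and 1.96% called lower. No probe passed limma with Benjamini-Hochberg adjustment at 0.05 at either time (0% at 7 h and 0% at 24 h), where 3590 probes at 7 h and 4160 at 24 h had an unadjusted p under 0.05 and the methods' t-test left 1 and 0 probes after adjustment. Of the 9 genes, 5 had a mean difference above 0 at 7 h and 4 at 24 h. Their median difference was 0.26 at 7 h, beside -0.06 over all probes, and -0.33 at 24 h, beside 0.01 over all probes. Without OGD replicate 1 the median at 24 h was -0.03 and 0 of the 9 genes were called. Scaling to the 1 usable spike-in probe moved the median of all probes to -0.83 at 7 h and -1.01 at 24 h, left 0 of the 9 called, and turned the differences of Hif1a, Epas1 and P4ha1 at both times and of Ankrd37 at 7 h below 0. These were bulk cultures, in which fewer cells of a type and less RNA per cell cannot be told apart.

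**Figure D1:**
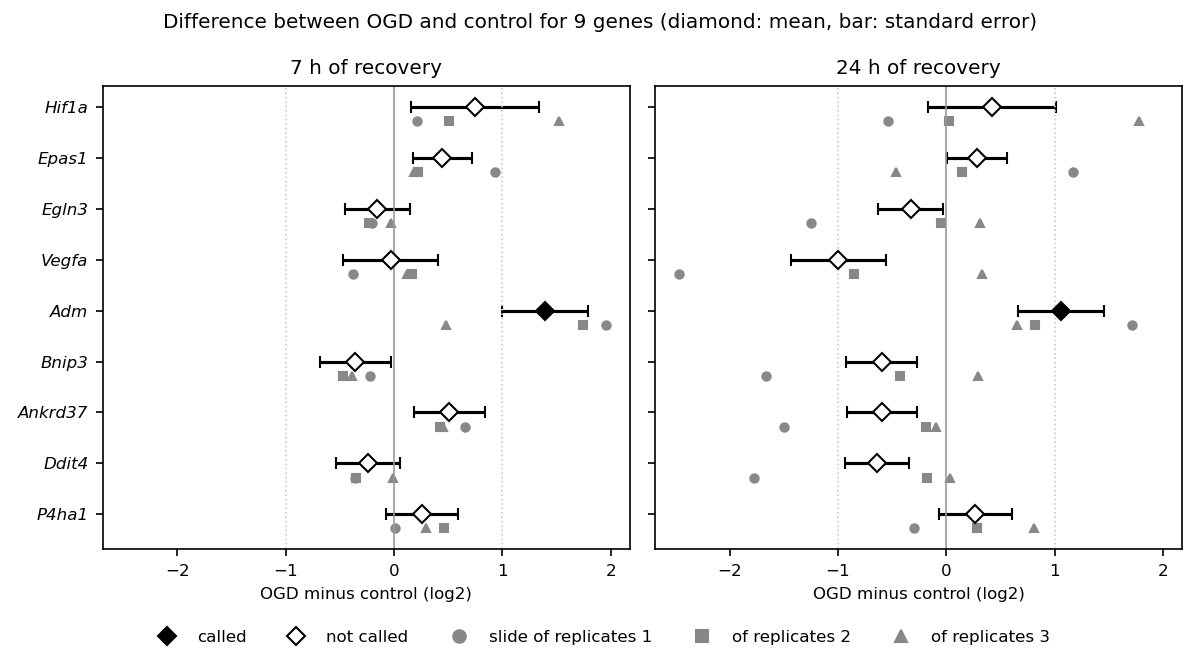
Difference between OGD and control (log2, horizontal axis) for the 9 genes with a probe at 7 h and 24 h of recovery. Diamonds are means of 3 against 3 arrays with the standard error of the limma fit, filled where called, grey symbols are the differences within each of the 3 slides, and dotted lines mark 2-fold. Adm lay at 1.39 at 7 h and 1.06 at 24 h with all 6 slide differences above 0, and at 24 h the slide of replicates 1 gave the lowest difference for 7 genes.

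Adm encodes adrenomedullin, a peptide that widens blood vessels and is a well-known HIF target. At 7 h its log2 level in OGD replicates 1, 2 and 3 was 7.05, 6.26 and 6.11. The controls of that time had 5.09, 4.52 and 5.63. All OGD arrays therefore lay above all controls, with replicate 1 the highest and replicate 3 closest to the controls. The mean difference was 1.39 (SE 0.40), which is 2.62-fold (limma, adjusted p = 0.270). At 24 h the log2 level was 5.93, 4.59 and 4.97 in the OGD arrays and 4.22, 3.78 and 4.31 in the controls. Here too the groups did not overlap, and the difference of 1.06 (SE 0.40) was 2.09-fold (adjusted p = 0.313).

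The Adm level was lower at 24 h than at 7 h under both conditions, but the arrays of each time lay on slides and scan dates of their own, so recovery time cannot be told apart from these in any difference between times. The 24 h minus 7 h difference was -0.98 in controls (SE 0.40, adjusted p = 0.310) and -1.31 after OGD (SE 0.40, adjusted p = 0.143). The OGD effect at 24 h minus that at 7 h was -0.33 (SE 0.56, adjusted p = 1.00). The order of the 4 means was OGD at 7 h (6.47), OGD at 24 h (5.16), control at 7 h (5.08) and control at 24 h (4.10), where OGD at 24 h and control at 7 h overlapped. The 24 h call of Adm was not made by the methods' t-test. Both calls ended with the scan session as a term, which gave 0.83 at 7 h (adjusted p = 0.771) and 0.78 at 24 h (adjusted p = 0.444, under 2-fold), and on slides scanned in a single session the differences were 0.48 at 7 h (replicates 3) and 0.82 and 0.65 at 24 h (replicates 2 and 3). The 24 h call of Adm was also lost without control replicate 2 (0.90, adjusted p = 0.604) and without OGD replicate 1 (0.68, adjusted p = 0.506). Normexp background correction gave 0.80 at 7 h (adjusted p = 0.235) and 0.63 at 24 h (adjusted p = 0.551). The lowest Adm differences came with scaling to the spike-in probe, at 0.61 at 7 h and 0.035 at 24 h.

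**Figure D2:**
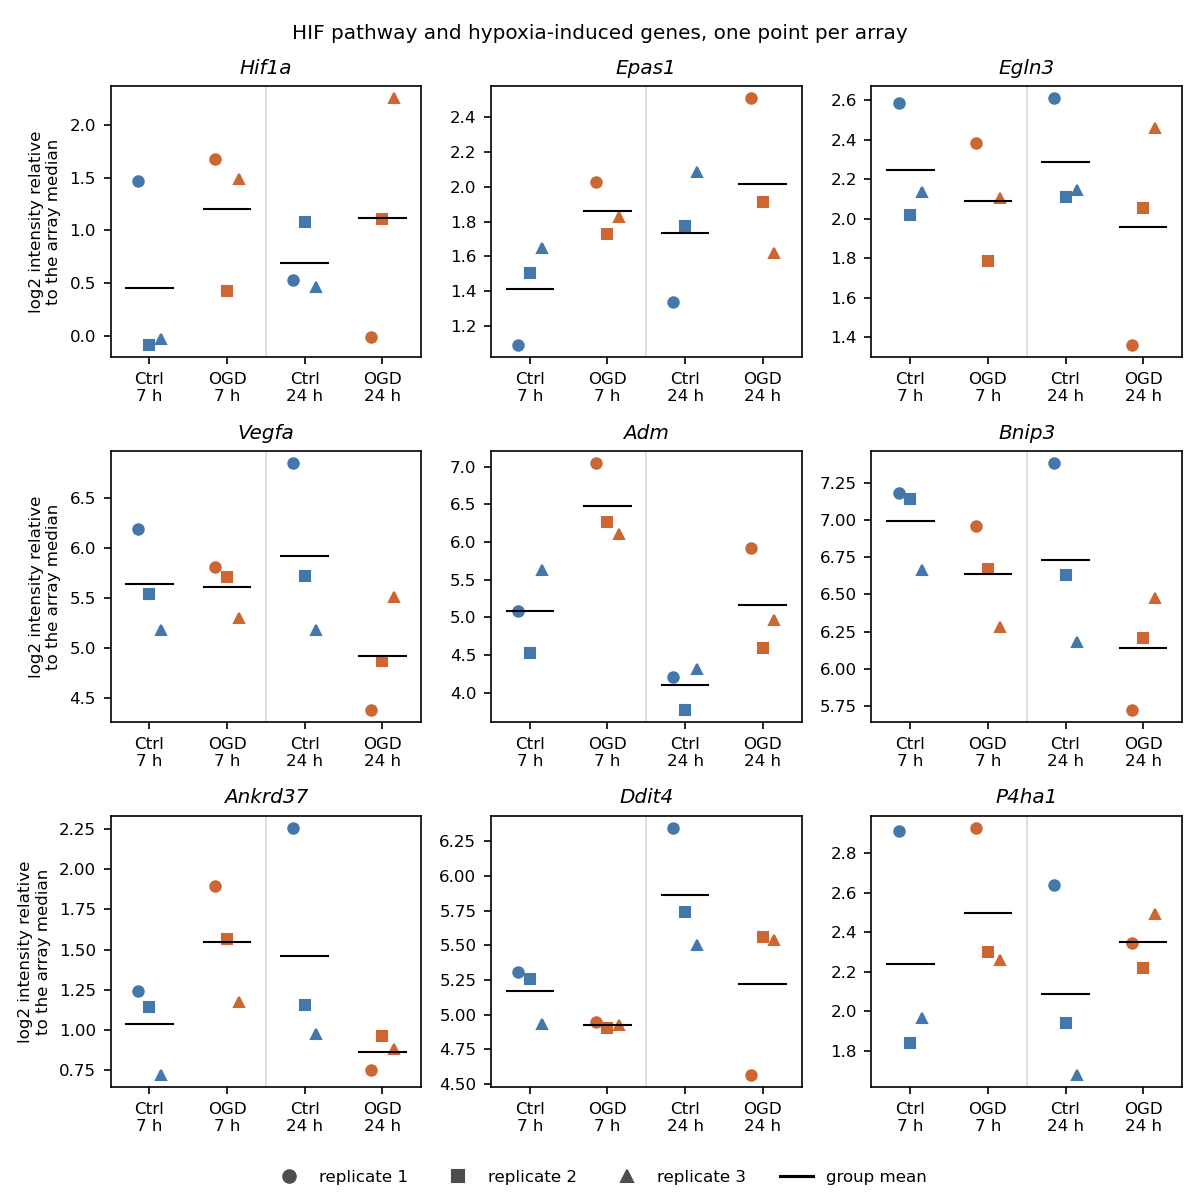
Log2 intensity relative to the array median (vertical axis, own scale in each panel) of the 9 genes in control (blue) and OGD (orange) arrays at 7 h and 24 h. Each symbol is 1 array, its shape gives the replicate number and the black line is the mean of 3 arrays. For Adm the OGD arrays lay above the controls of the same time, while for Hif1a the 3 OGD arrays at 24 h spread from 0.00 to 2.25.

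The alpha subunits themselves did not pass the thresholds. Hif1a encodes the alpha subunit found in nearly all cells. Its log2 level at 7 h was 1.68, 0.43 and 1.49 in OGD replicates 1 to 3, against 1.47, -0.08 and -0.03 in the controls. OGD replicates 1 and 3 were high and control replicate 1 was about as high, so the groups overlapped. The difference at 7 h was 0.75 (SE 0.59, adjusted p = 0.632), above 0 on all 3 slides. At 24 h the levels were 0.00, 1.11 and 2.25 after OGD and 0.53, 1.08 and 0.47 in controls, a difference of 0.42 (SE 0.59, adjusted p = 0.772). The 3 OGD arrays of that time stretched over a wider range than the controls and enclosed them. With the scan session as a term Hif1a reached 1.45 at 7 h (adjusted p = 0.771), and so replaced Adm as the 1 gene called there.

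Epas1 encodes the second alpha subunit, prominent in blood vessel and support cells. At 7 h its log2 level was 1.73 to 2.03 in the OGD arrays and 1.09 to 1.65 in the controls, so the groups did not overlap. The difference was 0.45 (SE 0.27, adjusted p = 0.528). Epas1 and Adm were the 2 of 9 genes without overlap at 7 h, where 26.1% of probes had none. The Epas1 difference at 24 h was 0.28 (SE 0.27, adjusted p = 0.650), and the slides went both ways, from -0.47 (replicates 3) to 1.17 (replicates 1).

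Egln3, the HIF-induced hydroxylase, was not called at either time. Its level at 7 h ranged from 1.79 to 2.38 after OGD and from 2.02 to 2.58 in controls. The difference was -0.15 (SE 0.30, adjusted p = 0.856), with all 3 slides below 0. The Egln3 difference at 24 h was -0.33 (SE 0.30, adjusted p = 0.624), and it ran from -1.25 on the slide of replicates 1 to 0.32 on that of replicates 3.

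Of the other genes of HIF subunits, hydroxylases, the Vhl complex and coactivators, 13 had a probe and 0 were called at either time. Their median difference was -0.12 at 7 h and 0.06 at 24 h. Counting only an unadjusted limma p under 0.05 gave 2 of them at 7 h and 1 at 24 h, beside 3590 and 4160 of all 30367 probes. These were Egln2 and Cited2 at 7 h and Arnt at 24 h. Cited2 differed by 0.94 at 7 h (SE 0.39, adjusted p = 0.391), under 2-fold, with all 3 OGD arrays above all controls. At 24 h Cited2 was at 0.27 (adjusted p = 0.779). Among Arnt, Arnt2, Hif3a, Egln2, Hif1an and Vhl, the lowest p was that of Egln2. It encodes a hydroxylase that is not induced by hypoxia, and differed by -0.73 at 7 h (SE 0.22, adjusted p = 0.276), under 2-fold, with all 3 OGD arrays below all controls. The Egln2 difference at 24 h was -0.34 (adjusted p = 0.493). Arnt, a beta subunit, differed by -0.12 at 7 h (adjusted p = 0.914) and 0.89 at 24 h (adjusted p = 0.357). Arnt2, the beta subunit typical of neurons, differed by -0.36 (adjusted p = 0.687) and -0.70 (adjusted p = 0.375). The values for Arnt and Arnt2 at 24 h thus had opposite signs, both under 2-fold. Hif3a, an alpha subunit that can restrain the others, differed by -0.47 at 7 h (adjusted p = 0.449) and -0.17 at 24 h (adjusted p = 0.758). For Hif1an, the asparagine hydroxylase that blocks HIF activity, the differences were 0.09 and 0.21. Vhl, which tags the hydroxylated subunit for breakdown, differed by 0.04 and 0.24. Leaving out single arrays brought at most 1 gene of this group over the thresholds at either time.

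Vegfa encodes the growth factor of blood vessels and had 4 probes. On the brightest, A_64_P099886, the log2 level at 7 h was 5.81, 5.71 and 5.30 in OGD replicates 1 to 3 and 6.19, 5.54 and 5.19 in the controls. The 2 groups covered nearly the same range, and the difference was -0.03 (SE 0.44, adjusted p = 0.981). At 24 h the level was 4.38, 4.87 and 5.51 after OGD against 6.85, 5.72 and 5.18 in controls. The lowest OGD and the highest control array came from the same slide, and the groups overlapped. The fold was 1.99 lower (log2 SE 0.44, adjusted p = 0.355), just inside 2-fold and so not called. Vegfa became called lower at 24 h without control replicate 3 (-1.36, adjusted p = 0.324), without OGD replicate 3 (-1.29, adjusted p = 0.202) and with normexp background correction (-1.42, adjusted p = 0.551). It was -0.53 without control replicate 1 (adjusted p = 0.729), and -0.94 with the scan session as a term (adjusted p = 0.497).

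The other Vegfa probes read differently at 7 h. Probe A_64_P099891 differed by 1.28 (SE 0.60, adjusted p = 0.436) and A_64_P099893 by 0.78 (SE 0.48, adjusted p = 0.532), each above 0 on all 3 slides, and A_64_P155983 by 0.13 (SE 0.50, adjusted p = 0.921). At 24 h these 3 probes gave -0.25, -0.31 and -0.69, with adjusted p = 0.889, adjusted p = 0.798 and adjusted p = 0.542. So all 4 Vegfa probes had means below 0 at 24 h, whereas at 7 h their means stretched from -0.03 to 1.28. The brightest probe and A_64_P155983 carry one RefSeq accession of Vegfa and the other pair another. The mean over the 4 probes was 0.54 at 7 h (adjusted p = 0.638).

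**Figure D3:**
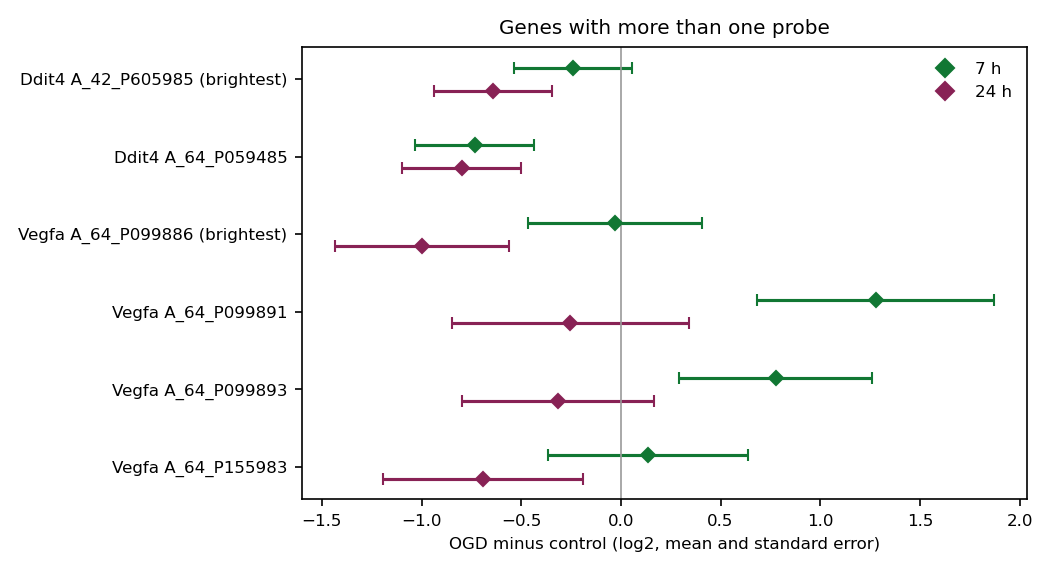
Difference between OGD and control (log2, mean and standard error of the limma fit, 3 against 3 arrays) at 7 h and 24 h for each probe of Ddit4 and Vegfa, the 2 genes with more than 1 probe. At 7 h the Vegfa probes ran from -0.03 to 1.28, while both Ddit4 probes lay below 0 at both times.

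Among the paralogs of these genes, which include Hif3a and Egln2, 10 had a probe, 0 were called at 7 h and 2 were called higher at 24 h. These were Vegfc, a growth factor of lymph vessels, at 1.11 (SE 0.22, adjusted p = 0.252), and P4ha3, a collagen prolyl hydroxylase, at 1.22 (SE 0.33, adjusted p = 0.262). Vegfc was above 0 on every slide at 7 h too, at 0.89 (adjusted p = 0.244), under 2-fold. Vegfc was under 2-fold without control replicate 1 at 24 h (0.97), and P4ha3 without OGD replicate 1 (0.93) and, narrowly, without control replicate 1. Normexp background correction also took both under 2-fold, to 0.77 for Vegfc and 0.71 for P4ha3. Vegfb, the family member least tied to hypoxia, differed by 0.01 at 7 h and -0.26 at 24 h. Of the 10 receptors and effectors of these genes, such as the VEGF receptors Flt1 and Kdr, the adrenomedullin receptor parts Calcrl, Ramp2 and Ramp3, and the Tsc1, Tsc2 and Mtor genes downstream of Ddit4, 0 were called at either time, with medians of 0.06 at 7 h and 0.15 at 24 h. Counting only an unadjusted p under 0.05 gave 1 of them at 7 h and 3 at 24 h, beside 3590 and 4160 of all 30367 probes. Mtor was lower at 7 h (-0.72), and at 24 h Flt1 (0.81) and Ramp3 (0.90) were higher and Nrp1 (-0.81) lower.

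Bnip3 encodes a mitochondrial protein of autophagy and cell death that is strongly induced by HIF in many cells. Its log2 level at 7 h was 6.96, 6.67 and 6.28 after OGD and 7.19, 7.14 and 6.67 in controls. Each OGD array lay below the control of its slide, but the groups overlapped. The difference was -0.36 (SE 0.33, adjusted p = 0.686). Levels of Bnip3 at 24 h were 5.72, 6.21 and 6.48 against 7.38, 6.63 and 6.18, a difference of -0.60 (SE 0.33, adjusted p = 0.435), and slide 3 went the other way at 0.29. Without OGD replicate 1 the Bnip3 difference at 24 h was -0.39. Its relative Bnip3l, a receptor for the clearance of mitochondria, differed by -0.28 at 7 h (adjusted p = 0.680) and -0.35 at 24 h (adjusted p = 0.545).

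Ddit4 (also REDD1), a brake on the mTOR pathway that both hypoxia and other stresses induce, was lower on average at both times without being called. On its brighter probe the level at 7 h was 4.90 to 4.95 in the OGD arrays, a narrow range, and 4.93 to 5.31 in the controls, with a difference of -0.24 (SE 0.30, adjusted p = 0.774). Levels of Ddit4 at 24 h were 4.57, 5.56 and 5.54 after OGD and 6.34, 5.74 and 5.50 in controls. OGD replicate 1 was the low array, and the difference was -0.64 (SE 0.30, adjusted p = 0.372). The second probe, A_64_P059485, gave -0.73 at 7 h (SE 0.30, adjusted p = 0.381), with no overlap, and -0.80 at 24 h (SE 0.30, adjusted p = 0.313), both under 2-fold. In controls Ddit4 was higher at 24 h than at 7 h by 0.69 (SE 0.30, adjusted p = 0.318), with the same limit of slides and scan dates.

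P4ha1, a subunit of the enzyme that hydroxylates collagen, showed overlapping groups at both times. Its level was 2.26 to 2.93 after OGD and 1.84 to 2.92 in controls at 7 h, a difference of 0.26 (SE 0.34, adjusted p = 0.795). At 24 h it was 2.22 to 2.49 against 1.68 to 2.64, a difference of 0.27 (SE 0.34, adjusted p = 0.741). The paralog P4ha2 differed by 0.25 at 7 h (adjusted p = 0.793) and -0.51 at 24 h (adjusted p = 0.484). Adm2, a peptide of the same family as adrenomedullin, differed by 0.93 at 7 h (SE 0.47, adjusted p = 0.469) and -0.02 at 24 h (adjusted p = 1.00).

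Ankrd37 encodes a small ankyrin repeat protein and is a direct HIF target with few other known functions. At 7 h its log2 level was 1.90, 1.57 and 1.17 in OGD replicates 1 to 3 and 1.24, 1.15 and 0.72 in the controls. Each OGD array lay above the control of its slide, although the groups overlapped. The difference was 0.51 (SE 0.33, adjusted p = 0.544). The order turned at 24 h, with levels of 0.76, 0.96 and 0.88 after OGD and 2.25, 1.16 and 0.97 in controls. All OGD arrays then lay below all controls, though replicates 2 and 3 did so by little, and the difference was -0.59 (SE 0.33, adjusted p = 0.435). Without control replicate 1 it was -0.20 (adjusted p = 0.840). Ankrd37 and Adm were the 2 of 9 genes without overlap at 24 h, where 17.9% of probes had none.

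Ankrd37 was the 1 gene of 9 whose response differed between the times at an unadjusted p under 0.05, a threshold that 3.58% of probes passed. The difference of the OGD effects, 24 h minus 7 h, was -1.10 (SE 0.46, adjusted p = 1.00). It missed the threshold with the scan session as a term (-1.04, adjusted p = 0.830), with normexp background correction (-0.83, adjusted p = 1.00) and without any one of 6 arrays. These were control replicate 3 (-0.95) and OGD replicates 1 (-0.93) and 2 (-1.09) of 7 h, and control replicate 1 (-0.71) and OGD replicates 1 (-1.05) and 3 (-1.11) of 24 h. For Vegfa the same difference was -0.97 (SE 0.62, adjusted p = 1.00), and ran from -0.50 without control replicate 1 at 24 h to -1.33 without control replicate 3 at 24 h. The other 7 genes did not pass that threshold.

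Other genes known to be induced by hypoxia were counted from 3 lists. In the list of glucose transport and glycolysis, whose enzymes HIF is best known for, 0 of 15 genes were called at either time. Their median was 0.25 at 7 h and -0.15 at 24 h, and the 7 h median turned to -0.01 with quantile normalization and to -0.31 with normexp background correction. With the fold threshold left out, 3 such genes passed at 7 h and 2 at 24 h, beside 3590 and 4160 of all 30367 probes. Their directions were mixed. At 7 h Slc2a3 and Ldha (0.66) were higher and Pdk1 (-0.61) lower, and at 24 h Hk2 (0.94) was higher and Pdk1 (-0.51) lower. Slc2a3, a glucose transporter of neurons singled out after its values were seen, differed by 0.80 at 7 h (SE 0.29, adjusted p = 0.331), above 0 on all 3 slides, and by -0.60 at 24 h (SE 0.29, adjusted p = 0.384), below 0 on all 3.

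In the list of vessels, iron, matrix and acid-base balance, 2 of 13 genes with a probe were called higher at 7 h and 2 at 24 h, with 0 lower. Over all probes 2.08% were called higher at 7 h and 3.71% at 24 h. The median of the list was 0.11 at 7 h and 0.25 at 24 h. Stc1, the hormone stanniocalcin, was called at 7 h at 1.42 (SE 0.19, adjusted p = 0.117) and was at -0.21 at 24 h (adjusted p = 0.621). Igfbp3, a binding protein of insulin-like growth factors, was at 1.26 at 7 h (SE 0.22, adjusted p = 0.147) and, under 2-fold, at 0.95 at 24 h (adjusted p = 0.252). At 24 h Hmox1, the heme-degrading enzyme, was at 1.87 (SE 0.64, adjusted p = 0.294), with slides from 0.02 to 4.37, and Loxl2, an enzyme of collagen cross-links, was at 1.47 (SE 0.52, adjusted p = 0.299).

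Some of these calls rested on single arrays. Hmox1 was not called without control replicate 1 (1.41, adjusted p = 0.689), nor was Loxl2 without control replicate 1 (1.17, adjusted p = 0.689), control replicate 2 (1.33, adjusted p = 0.590) or OGD replicate 1 (1.16, adjusted p = 0.462). Without OGD replicate 1 Hmox1 was 1.08 (adjusted p = 0.436). Neither Hmox1 nor Loxl2 was called by the methods' t-test, and normexp background correction ended the calls of Loxl2 (0.95), Stc1 (0.98) and Igfbp3 (0.71). With the scan session as a term Stc1 at 7 h stayed called at 1.24 (adjusted p = 0.493) and Igfbp3 at 1.22 (adjusted p = 0.499).

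In the list of chromatin, transcription, stress and metabolism genes, 12 had a probe and none was called higher. Insig2, a brake on sterol synthesis, was called lower at 7 h at -1.04 (SE 0.29, adjusted p = 0.270), and Ppp1r3c, a glycogen-targeting phosphatase subunit, was called lower at 24 h at -1.06 (SE 0.46, adjusted p = 0.351). The call of Ppp1r3c was lost in 16 of 26 alternatives, among them the 75th percentile (-0.95), quantile normalization (-0.95) and the methods' t-test, and its value without OGD replicate 1 was -0.49 (adjusted p = 0.606). The call of Insig2 was lost in 6, among them the 75th percentile (-0.93), quantile normalization (-0.96), the scan session as a term (-0.61) and leaving out control replicate 1 (-0.90) or OGD replicate 1 (-0.88) of 7 h. The medians of this list were -0.14 at 7 h and -0.25 at 24 h. Over all probes 1.66% were called lower at 7 h and 1.96% at 24 h.

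**Figure D4:**
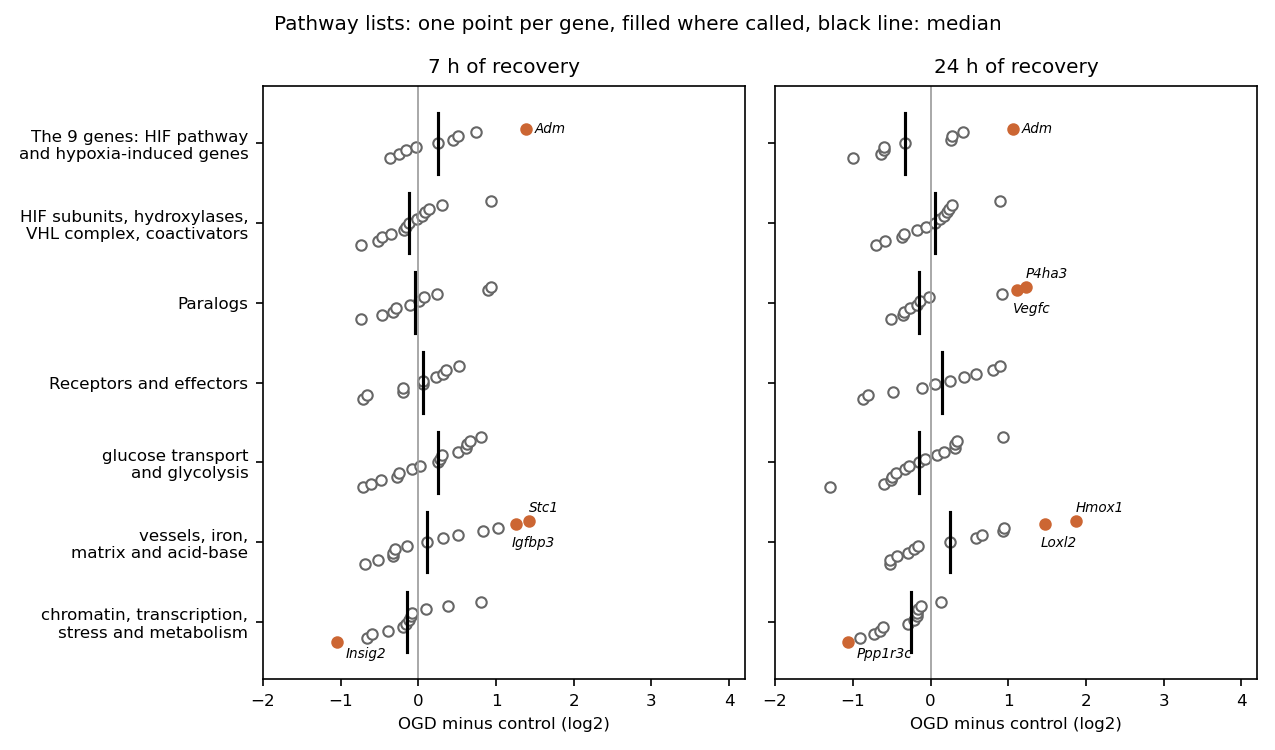
Difference between OGD and control (log2, horizontal axis) of each gene with a probe in the 9-gene group and in 6 lists of related genes, at 7 h and 24 h. Each point is 1 gene, filled and named where called, and the black line is the median of the list. Called genes other than Adm stand in the paralog list at 24 h and in 2 of the lists of hypoxia-induced genes, where Stc1 lay at 1.42 at 7 h and Hmox1 at 1.87 at 24 h, and the glycolysis list held none.

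Markers of the cell types that such cultures can hold were read on the same arrays. All 9 neuronal markers with a probe were well above background on all 12 arrays, and so were all 8 astrocyte markers. The summed level of the neuronal markers, relative to the array median, was 620 to 894 in controls and 296 to 631 after OGD at 24 h. OGD replicate 1 gave the 296, and replicates 2 and 3 gave 584 and 631. Of these 9 markers 3 were called lower and 9 lay below 0 at 24 h. At 7 h the neuronal sum was 552 to 706 in controls and 542 to 722 after OGD, with 1 called lower and 7 of 9 below 0. The summed astrocyte markers were 771 to 836 in controls and 894 to 1052 after OGD at 7 h, and 707 to 972 against 438 to 1079 at 24 h. Here too OGD replicate 1 gave the 438, and replicates 2 and 3 gave 925 and 1079. Of the 8 astrocyte markers 0 were called at either time, with 8 above 0 at 7 h and 7 below 0 at 24 h. Vascular and fibroblast markers summed to 10.9 to 63.2 in controls and 54.7 to 115 after OGD at 24 h, and microglial markers to 18.6 to 22.9 against 21.4 to 31.5, where Tek and Ptprc were not well above background on any array. The vascular and fibroblast sum rested mostly on the collagens Col1a1 and Col3a1, with mean log2 levels of 5.35 and 4.65 after OGD at 24 h. Of that list 5 of 8 differed above 0 at 24 h, while Pecam1 (-0.32), Cldn5 (-0.56) and Tek (-0.03) lay below 0. Summed vascular and fibroblast markers at 7 h were 13.0, 26.2 and 55.4 in control replicates 1 to 3 and 20.6, 64.5 and 62.6 after OGD. Of these markers 1 of 8 was called higher at 24 h, and the 2 called lower at 7 h, Cldn5 and Rgs5, were well above background on 0 of the 3 OGD arrays of that time, with 0 called lower under a floor of 10 intensity units, and of the microglial markers 1 of 8 was called higher at 7 h. Oligodendrocyte markers summed to 186 to 279 in controls and 222 to 387 after OGD at 24 h, with 0 of 7 called. The part of these shifts in the values of the HIF pathway genes was not tested.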

How the data were processed

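RNA of the 12 cultures (4 groups of 3) was labelled with Cy3 and hybridised to 1-colour Agilent rat arrays of 44254 spots, scanned and read with Feature Extraction 10.5.1.1 (array annotation on build rn4). The deposited intensity values are the background-subtracted processed signals of that software. The authors also deposited a table of log2 values, which equal the log2 intensity plus 1 constant per array within 0.01.

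Control spots (44254 less the 42877 used) and spots flagged as outliers were left out, log2 intensity was centred on each array's median, and spots of a probe were averaged. Probes were named through RefSeq accessions (18004 of 30367 named, 12363 not). A model of 4 groups was fitted with limma 3.58.1 in R 4.3.3 and p-values were adjusted by the Benjamini-Hochberg method over all 30367 probes. A gene was called at an unadjusted limma p under 0.05 and at least 2-fold. The study applied these limits to Student's t-test at each time, run here as an alternative (the methods' t-test). The code was tested on simulated data.

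Genes and lists were chosen with earlier results of these data known, and Adm is among genes the study itself lists, so its call is not independent evidence. The text names all 10 genes, their partners and paralogs, and up to 5 called genes from each list, those with the largest change first. Some others are named as examples of a list or beside a count. A listed gene is not reported here and was left out of its list. The limma p-values rest on the spread between cultures pooled over the 4 groups of 3, and that number limits the precision. They can differ from a test of 2 groups alone. For Vegfa at 24 h the unadjusted p was 0.044 by limma and 0.166 by the methods' t-test. Alternatives covered scaling, background, filters, flagged spots, probe choice, test, slide block, single arrays and, added after seeing the data, scan session. The control and OGD arrays of 1 replicate number shared a slide, but the correlations of their deviations from the group means ran from -0.05 to 0.17, so the numbers were not taken to pair the cultures. Differences within a slide are therefore given as description only. These correlations cover all probes, and single genes can still follow the replicate number. Mbp at 7 h had standard deviations of 0.98 in controls and 1.07 after OGD. Its slide differences were only -0.44, -0.24 and -0.27. The SEs of the main model take no account of such pairing, which slide as a block does.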

Additional observations from a re-analysis of the deposited data

Results flagged for a closer look

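Only the 9 genes, the partners and paralogs described, and the called genes of the lists were searched. Stc1 and P4ha3 entered through a call at 1 time in these data, which favours a difference between the times. These 4 results are listed because the OGD effect at 24 h minus that at 7 h passed an unadjusted p under 0.05, or because the slides of both times lay on opposite sides of 0. The first holds for Ankrd37, at -1.10 on the log2 scale (adjusted p = 1.00), for Stc1, at -1.64 (adjusted p = 1.00), and for P4ha3, at 1.15 (adjusted p = 1.00). P4ha3 did not pass with slide as a fixed block, the 75th percentile, normexp (0.47), the spike-in probe (0.91) or without any of 6 single arrays, where it ran from 0.85 (without OGD replicate 1 at 24 h) to 1.14 (without control replicate 1 at 7 h). Stc1 did not pass with the spike-in probe (-1.88). P4ha2 was higher after OGD on all 3 slides at 7 h and lower on all 3 at 24 h, but its difference of -0.75 did not pass (adjusted p = 1.00). Slc2a3, singled out after its values were seen, had a difference of -1.40 (adjusted p = 1.00), which passed unadjusted. So did Nrp1 (-0.87) and Vegfd (1.02), which like Slc2a3 lay outside the search, so 4 is not a count over the lists. Over all probes 3.58% passed.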

How the results depend on the processing

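Over 26 alternatives, 435 of 468 values of the 9 genes kept their direction and side of the thresholds, 9 lost a call (all Adm), 4 gained one and 20 turned sign, and of 936 values of the other named genes 841 kept both. The number of the 9 genes called at 7 h was 1 by default and 0 with the spike-in probe or normexp, and at 24 h it was 1 by default and 0 with the spike-in probe, the methods' t-test or the scan session. Leaving out single arrays gave 1 to 1 at 7 h and 0 to 2 at 24 h, and for a response that differed between times 0 to 2, where the spike-in probe, normexp and the scan session gave 0. With the replicate block (slide fixed or random) each of these counts was 1, and no call of the 9 genes changed. The scan date held all arrays of 1 time, so that block was not run. Normexp used the median spot signal. Over all probes the calls higher and lower were 631 and 505 at 7 h and 1126 and 595 at 24 h. They ranged from 80 to 2047 and 269 to 871 at 7 h, and from 20 to 1601 and 95 to 1444 at 24 h. The 75th percentile moved the median of all probes to 0.06 at 7 h and 0.12 at 24 h.
Sign turns were as follows, and the cause was not tested. The 75th percentile gave 0.082 for Vegfa at 7 h and 0.096 for Adm2 at 24 h. Quantile normalization gave 0.0094 for Vegfa and -0.097 for Vhl at 7 h. The mean over probes gave 0.54 for Vegfa at 7 h. The spike-in probe gave at 7 h -0.032 for Hif1a, -0.33 for Epas1, -0.27 for Ankrd37, -0.52 for P4ha1, -0.69 for Hif1an, -0.74 for Vhl, -0.53 for P4ha2, -0.77 for Vegfb and -0.71 for P4ha3, and at 24 h -0.60 for Hif1a, -0.74 for Epas1, -0.76 for P4ha1, -0.13 for Arnt, -0.81 for Hif1an, -0.78 for Vhl and -0.080 for Igfbp3. Normexp gave at 7 h -0.16 for P4ha1, 0.61 for Arnt, 0.41 for Hif3a, -0.60 for Vhl, -0.12 for P4ha2 and -0.43 for Vegfb, and at 24 h -0.047 for Epas1, -0.042 for P4ha1, 0.23 for Hif3a, -0.20 for Vhl and 0.39 for Adm2. The scan session gave at 7 h 0.15 for Egln3, 0.085 for Vegfa, 0.085 for Ddit4, 0.051 for Arnt2, -0.21 for Hif1an and -0.0029 for Vhl, and 0.25 for Adm2 at 24 h. Without single arrays the ranges at 7 h were -0.30 to 0.015 for Egln3, -0.26 to 0.25 for Vegfa, -0.24 to 0.35 for Vegfb, -0.22 to 0.23 for P4ha3, -0.22 to 0.073 for Arnt and -0.054 to 0.100 for Vhl. At 24 h they were -0.14 to 0.094 for Adm2, -0.048 to 0.49 for Hif1an, -0.32 to 0.00060 for Hif3a and -0.14 to 0.98 for Hif1a.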
